A study of Mus musculus with 34 samples.

Results

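Arc, Homer1, Nptx1, Nptx2, Nptxr and Plk2 are activity-regulated synaptic effectors, genes whose products act at the synapse after a neuron has fired. They were chosen by name, and all 6 were listed in each of the 5 deposited tables, which together list 54540 gene symbols. All 6 also passed the filter on low counts in every comparison, so no member was left out of a test. RNA was sequenced from 34 RiboTag libraries of C57/BL6 mice at postnatal day 60. In RiboTag mice, cells with Cre recombinase carry an HA tag on the ribosomal protein Rpl22, and mRNA is pulled down with their ribosomes by an antibody to HA. Cortex and hippocampus are the labelled tissue, although cortices alone appear in the extraction protocol. The study asked which interneuron transcripts change when mice learn by contextual fear conditioning, used pentylenetetrazol (PTZ), which blocks GABA receptors, as a reference for broad excitation, and profiled interneurons with a floxed Nr4a1 gene.

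The genotype was PV:Cre/Ribotag for PV libraries and Sst:Cre/Ribotag for SST libraries, so every control also carries Cre and the tagged ribosome. Batch 1 held PV libraries of mice given saline (n = 3) or PTZ (n = 4). Batch 2 held SST libraries after saline (n = 4) or PTZ (n = 3) and PV libraries after saline (n = 2). Batch 3 held PV libraries of home cage mice (n = 3), of mice trained by contextual fear conditioning, called CFC here (n = 3), and of home cage mice of genotype PV:Cre/Nr4a1-f/f/Ribotag (n = 3), called PV cKO here. Batch 4 held SST home cage (n = 3) and SST CFC libraries (n = 3). Batch 5 held home cage mice of genotype Sst:Cre/Nr4a1-f/f/Ribotag (n = 3), called SST cKO. The 2 Cre drivers mark parvalbumin and somatostatin interneurons. PV and SST below name the driver of a library, since a pull-down also holds RNA of other cells. In such bulk samples, fewer cells of a type and less RNA per cell cannot be told apart. The labels give no dose of PTZ and no time between treatment and dissection, and they do not say whether the libraries of a group came from separate animals. The p-values therefore measure the spread between libraries, which may be technical in part.

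Arc binds endocytic proteins and takes AMPA-type glutamate receptors off the synaptic surface. Homer1 links metabotropic glutamate receptors to the postsynaptic scaffold, and its short activity-induced form uncouples them. The pentraxins Nptx1 and Nptx2 are secreted and cluster AMPA receptors, and Nptxr is the membrane-bound pentraxin that anchors them. In excitatory neurons, Nptx2 is known for recruiting excitatory synapses onto PV interneurons. Plk2 is a kinase, induced by activity, that lowers synaptic strength over hours by acting on scaffold proteins of dendritic spines. Arc, Homer1 and Plk2 are classic immediate early or early response genes of principal neurons, and CREB, which binds the cAMP response element, is among the factors that switch on such genes.

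Promoter sequence is shown for Plk2 and Homer1, the members whose promoter windows were used here. The Plk2 window holds the full element that CREB binds, and 1 of the 2 Homer1 windows holds only its shorter core. RefSeq windows (GRCm38.p6) run from 250 bases before to 50 bases after a start site. Those of Arc, Nptx1, Nptx2 and Nptxr were not used here. Each line gives the 150 bases before the start site on the plus strand, 5′ to 3′, with every match in capitals.
Plk2 (chr13:110394894-110395043): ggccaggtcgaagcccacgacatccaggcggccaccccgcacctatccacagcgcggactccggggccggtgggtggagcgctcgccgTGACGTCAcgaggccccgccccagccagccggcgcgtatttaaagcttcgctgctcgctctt
Homer1 (chr13:93303607-93303756): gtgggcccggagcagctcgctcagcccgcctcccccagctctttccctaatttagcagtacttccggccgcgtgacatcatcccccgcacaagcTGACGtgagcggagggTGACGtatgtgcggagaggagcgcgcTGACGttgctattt

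The Plk2 stretch holds 1 full cAMP response element, TGACGTCA, from 62 to 55 bases before the start site. Of 32851 windows of 300 bases, 1.79% hold that element. The Homer1 stretch holds the shorter core TGACG at 3 places, which begin 56, 40 and 14 bases before the start site; 20.8% of windows hold the core, on either strand, and every full element contains it. A second Homer1 window had no match. The AP-1 site TGANTCA (7.81% of windows), the Nr4a1 site AAAGGTCA (1.51%), the Egr site GCGNGGGCG (5.55%), the CArG box (1.63%) and the MEF2 site (3.19%) had no match in the windows of Plk2 and Homer1. These are descriptions of letters, and binding was not measured.

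In GRCm38 with GENCODE M21 genes, Arc lies on the minus strand of chromosome 15 from 74669083 to 74672570, and Nptxr on the same strand and chromosome from 79786351 to 79804766. Homer1 (93299635 to 93405129) and Plk2 (110395046 to 110400844) lie on the plus strand of chromosome 13. Nptx1 is on chromosome 11 from 119538719 to 119547753 (minus strand) and Nptx2 on chromosome 5 from 144545902 to 144557478 (plus strand). Homer1 has 12 annotated transcripts, 11 of them coding, and the deposited values are per gene, so its short and long forms cannot be told apart. Nptxr overlaps the coding gene Npcd on the same strand, so its values are uncertain where reads could be split between them. The submitters' processing notes name the builds mm10 and GRCm39 without saying which table used which.

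Total counts ran from 4933110 to 27282912 per library, with the shallowest being the PV saline libraries of batch 2 (6161764 and 4933110). Levels are CPM, a library's counts scaled to a common total, after TMM scaling within a table. The 5 tables were scaled separately, so every test of a level was made within a batch, and levels set side by side across tables are a description only. Sst followed the labels, with 1750 to 6080 CPM in SST libraries against 30.2 to 464 CPM in PV libraries. Pvalb did so within batch 2 (243 and 362 CPM in PV, 3.9 to 12 CPM in SST libraries), but the SST libraries of batches 4 and 5 held 87.3 to 478 CPM of it and the PV home cage and CFC libraries of batch 3 held 143 to 190 CPM. It was at only 15.9 to 22.1 CPM in batch 1 after saline, below Sst there (38 to 62.3 CPM), and at 1050, 1350 and 156 CPM in the PV cKO libraries against 155 to 190 CPM in their home cage controls. The 9 PV markers of batch 1 summed to 4440, 6850 and 5750 CPM in the saline libraries and to 3500, 1620, 4450 and 4300 CPM in the PTZ libraries; in SST libraries of the other batches they summed to 2780 to 3860 CPM. Nr4a1, the floxed gene, was at 6.68, 16.5 and 7.65 CPM in PV cKO and at 5.07, 7.43 and 11.7 CPM in PV home cage libraries (log2 difference 0.38 ± 0.35, SE, adjusted p = 0.592). Counts cover the whole gene, including exons outside a deleted part, so this level does not check the genotype.

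Among the saline libraries of batch 1, PV saline replicate 1 stood apart. It had the highest level of all 6 members among the 3 saline libraries, and its 14 excitatory neuron markers summed to 3230 CPM against 1430 and 1450 CPM in the others. Slc17a7, the glutamate transporter of cortical excitatory neurons, was at 247 CPM there against 56.1 and 56.4 CPM. Its 10 astrocyte markers summed to 4990 CPM against 1010 and 1130 CPM. Results for PTZ in PV libraries are therefore given with and without it. The PTZ libraries of batch 1 were uneven too. Their 6 pan-GABAergic markers summed to 4990, 2360, 5890 and 5710 CPM in replicates 1 to 4. In saline replicates 1, 3 and 4 these markers summed to 4980, 8250 and 6950 CPM.

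**Figure D1:**
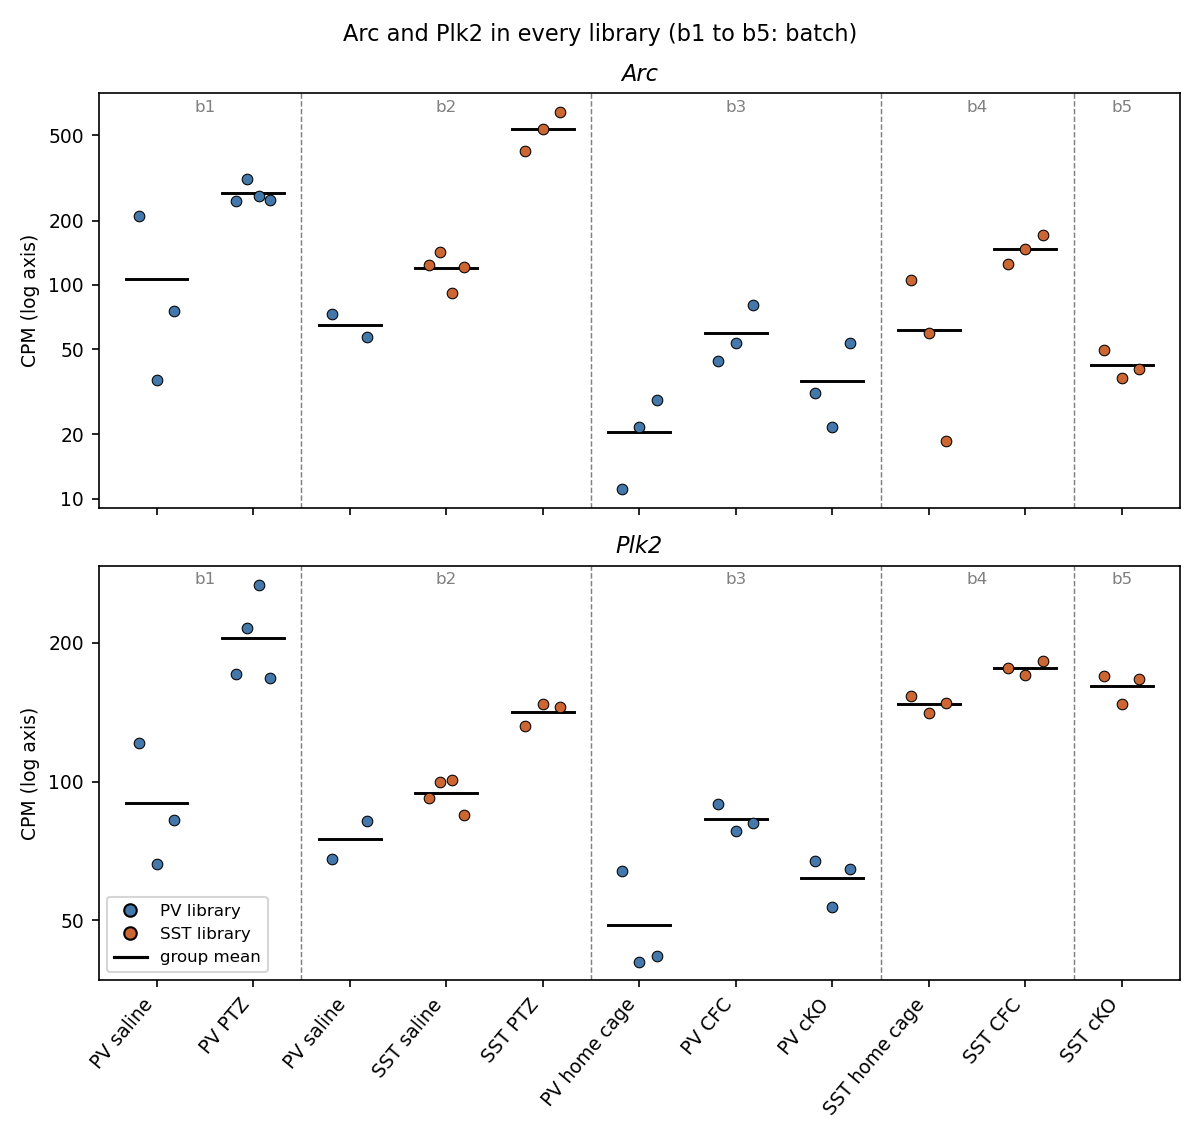
Levels of Arc and Plk2 in CPM (log axes) in each of the 34 libraries; points are libraries, black lines group means, and dashed lines separate the 5 batches, which were scaled separately. The 3 SST PTZ libraries hold the highest Arc levels (425, 537 and 641 CPM). PV saline replicate 1 of batch 1 lies above the other saline libraries of its batch. It does so far more for Arc (210 CPM against 36.1 and 75.2 CPM) than for Plk2 (121 CPM against 66.3 and 82.7 CPM).

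PTZ in SST libraries gave the clearest response of the set. Arc was at 124, 143, 92 and 121 CPM after saline and at 425, 537 and 641 CPM after PTZ. Every PTZ library lay above every saline library. Arc rose by 2.15 ± 0.17 on the log2 scale (SE; 95% interval 1.78 to 2.52; adjusted p = 0.000107, edgeR), which had the rank 3 by p-value among 11784 genes. It was the 1 member called, against 0.144% of all genes tested. The call held in all 13 alternative analyses, 7 of which left out 1 library each, at log2 2.00 to 2.29.

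Plk2, the scaffold kinase, was at 91.9, 99.7, 101 and 84.5 CPM after saline and at 132, 147 and 145 CPM after PTZ. The groups did not overlap, and the spread within each was small. The log2 change of 0.58 ± 0.11 missed the threshold over all genes (adjusted p = 0.114, edgeR). It passed with DESeq2 (adjusted p = 0.000438), with limma voom (0.0397) and with only the compared groups in the fit (0.00862), and the adjusted p over all 13 alternatives ran up to 0.819.

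Homer1 and Nptx2 also lay above saline in every SST PTZ library. Homer1 was at 119, 144, 131 and 146 CPM after saline and at 155, 188 and 154 CPM after PTZ, a log2 change of 0.30 ± 0.12 (adjusted p = 0.989). Nptx2, the secreted pentraxin known to be activity-induced, was at 3.02, 3.66, 4.59 and 4.31 CPM after saline and at 4.91, 6.94 and 7.69 CPM after PTZ (0.74 ± 0.47, adjusted p = 0.989). Neither passed the test. Non-overlap with higher values after PTZ thus held for 4 of the 6 members and for 4.57% of all genes tested.

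The remaining pentraxins of the SST libraries overlapped between saline and PTZ. Nptx1 ranged from 54.4 to 81.9 CPM after saline and from 70.8 to 99.9 CPM after PTZ (log2 0.22 ± 0.17). Nptxr, the anchor, ranged from 6.59 to 14.1 CPM and from 5.67 to 10 CPM (-0.13 ± 0.30). The median change over the 6 members was 0.44, against -0.01 over all genes. The 14 excitatory markers summed to 1250 to 1800 CPM after saline and to 1540 to 1920 CPM after PTZ, with 13 of 14 higher (median log2 0.23). Vascular and mural markers summed to 24.7 to 50.7 CPM after saline and to 55.7 to 75.6 CPM after PTZ (5 of 7 tested higher, 0.68), and PV interneuron markers were lower for 9 of 9 (-0.24). None of these markers was called, and their part in these values was not tested.

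In PV libraries PTZ gave larger spreads. Arc was at 210, 36.1 and 75.2 CPM in saline replicates 1, 3 and 4 and at 248, 314, 261 and 250 CPM after PTZ. The groups did not overlap, though the highest saline library came close to the PTZ libraries. The log2 change of 1.33 ± 0.47 (95% interval 0.29 to 2.37) did not pass the test (adjusted p = 0.321, edgeR). Without saline replicate 1 it was 2.26 and passed (adjusted p = 0.0285); over all 13 alternatives the adjusted p ran from 0.0285 to 0.707.

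Plk2 was at 121, 66.3 and 82.7 CPM after saline and at 171, 215, 267 and 168 CPM after PTZ. Here too the groups did not overlap. Its log2 change was 1.19 ± 0.26 (adjusted p = 0.239, edgeR), and 1.45 without saline replicate 1 (adjusted p = 0.0824). DESeq2 called it (adjusted p = 0.00485, in a range of 0.00485 to 0.707 over 13 alternatives). Plk2 and Arc were the 2 of 6 members without overlap, against 7.56% of all genes with higher values after PTZ.

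Homer1 and the pentraxins overlapped between the PV groups of batch 1. Homer1 was at 257, 116 and 125 CPM after saline and at 278, 304, 168 and 152 CPM after PTZ (0.44 ± 0.34). Leaving out 1 library at a time, saline replicate 1 among them, gave log2 changes of 0.24 to 0.90. PTZ replicates 1 and 2 were the high ones, and without both, a choice made after seeing the data, the log2 change was -0.05. Nptx1 was at 189, 42.3 and 47.3 CPM after saline and at 42.8, 99.5, 74.4 and 102 CPM after PTZ. Its log2 change turned from -0.22 ± 0.50 to 0.82 without saline replicate 1. Nptxr was at 47, 12.7 and 16.8 CPM after saline and at 11, 24.9, 9.58 and 27.6 CPM after PTZ, and turned from -0.48 ± 0.49 to 0.30 in the same way. Nptx2 was at 10.4, 3.07 and 0.912 CPM and at 4.84, 11.8, 7.82 and 9.76 CPM (0.85 ± 0.63, and 2.08 without saline replicate 1). None of these 4 passed the test with or without that library.

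No member was called by edgeR in this comparison, where 0.0294% of 13598 genes were. Of the 6 members, 2 had an unadjusted p under 0.05, as did 1875 genes; DESeq2 called 1 member and limma voom 0. Markers of cell types differed too, none of them called. PV interneuron markers were lower after PTZ for 8 of 9 genes (median log2 -0.70), and pan-GABAergic markers for 6 of 6 (-0.47). The PV markers summed to 4440 to 6850 CPM after saline and to 1620 to 4450 CPM after PTZ. Pvalb itself went the other way (log2 2.00 ± 0.35). It was at 15.9, 21.9 and 22.1 CPM after saline and at 78.9, 40.3, 72.7 and 128 CPM after PTZ. Excitatory markers summed to 2050 to 2870 CPM after PTZ, higher for 13 of 14 genes (median log2 0.60), and all 10 microglial and all 12 vascular markers were higher (medians 1.83 and 0.97), as were 11 of 11 oligodendrocyte (0.66) and 9 of 10 astrocyte markers (0.52). Microglial sums overlapped between the groups, at 63.7 to 525 CPM after PTZ and 48.5 to 144 CPM after saline. So did those of oligodendrocyte (641 to 3490 CPM and 852 to 2310 CPM) and astrocyte markers (2090 to 3420 CPM and 1010 to 4990 CPM). Vascular sums did not overlap (86.3 to 176 CPM and 34.3 to 70.9 CPM). None of the 14 excitatory markers was at 0 in any library of the batch. Their part in the members' values was not tested.

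CFC in PV libraries was followed by higher Arc, Plk2 and Nptx1 in every library, without a call. Arc was at 11.1, 21.7 and 28.9 CPM in the home cage and at 44.1, 53.8 and 80.8 CPM after CFC, with no overlap. Its log2 change was 1.55 ± 0.38 (95% interval 0.72 to 2.38; adjusted p = 0.186, edgeR). Plk2 was at 64.1, 40.7 and 41.8 CPM in the home cage and at 89.3, 78 and 81.5 CPM after CFC, again with no overlap. It differed by 0.76 ± 0.18 (adjusted p = 0.186). Nptx1 was at 10.4, 8.39 and 6.98 CPM in the home cage and at 11.6, 11.5 and 22.5 CPM after CFC. CFC replicate 3 was the high one, and the difference of 0.81 ± 0.31 (adjusted p = 0.204) was 0.42 without it.

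These 3 of 6 members compare with 13.6% of all genes that lay higher without overlap after CFC. edgeR called 0% of 15150 genes in this comparison, and 2834 had an unadjusted p under 0.05, among them the same 3 members. DESeq2 called Arc (log2 1.51, adjusted p = 0.0119) and Plk2 (0.74, adjusted p = 0.0167), the fit without a filter called both (adjusted p = 1.17e-10 and 0.00231), and limma voom called 0 members. Without home cage replicate 1, in which Plk2 was highest and Arc lowest, Plk2 passed in edgeR (1.01, adjusted p = 0.0191). Over the 12 alternatives the adjusted p reached 0.462 for both genes.

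The other members moved less in PV libraries after CFC. Nptxr was at 39.8, 32.7 and 27 CPM in the home cage and at 36.9, 46.8 and 46.2 CPM after CFC (0.38 ± 0.19, adjusted p = 0.308). Homer1 was at 27.6, 16.4 and 20.8 CPM and at 27.3, 27 and 27.9 CPM (0.34 ± 0.20, adjusted p = 0.384), so the CFC libraries lay close to the highest control. Nptx2 was at 2.39, 2.13 and 1.64 CPM and at 3.6, 0.762 and 1.98 CPM (0.03 ± 0.57), with 15 to 79 counts behind each value. All 6 differences were positive, with a median of 0.57 against 0.02 over all genes. Excitatory markers were at 464 to 615 CPM in the home cage and 476 to 601 CPM after CFC, higher for 7 of 14. Astrocyte markers were higher for 8 of 10 genes and oligodendrocyte markers for 9 of 11 (medians 0.34 each), and SST interneuron markers were lower for 7 of 8 (-0.23), none called; their part was not tested.

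**Figure D2:**
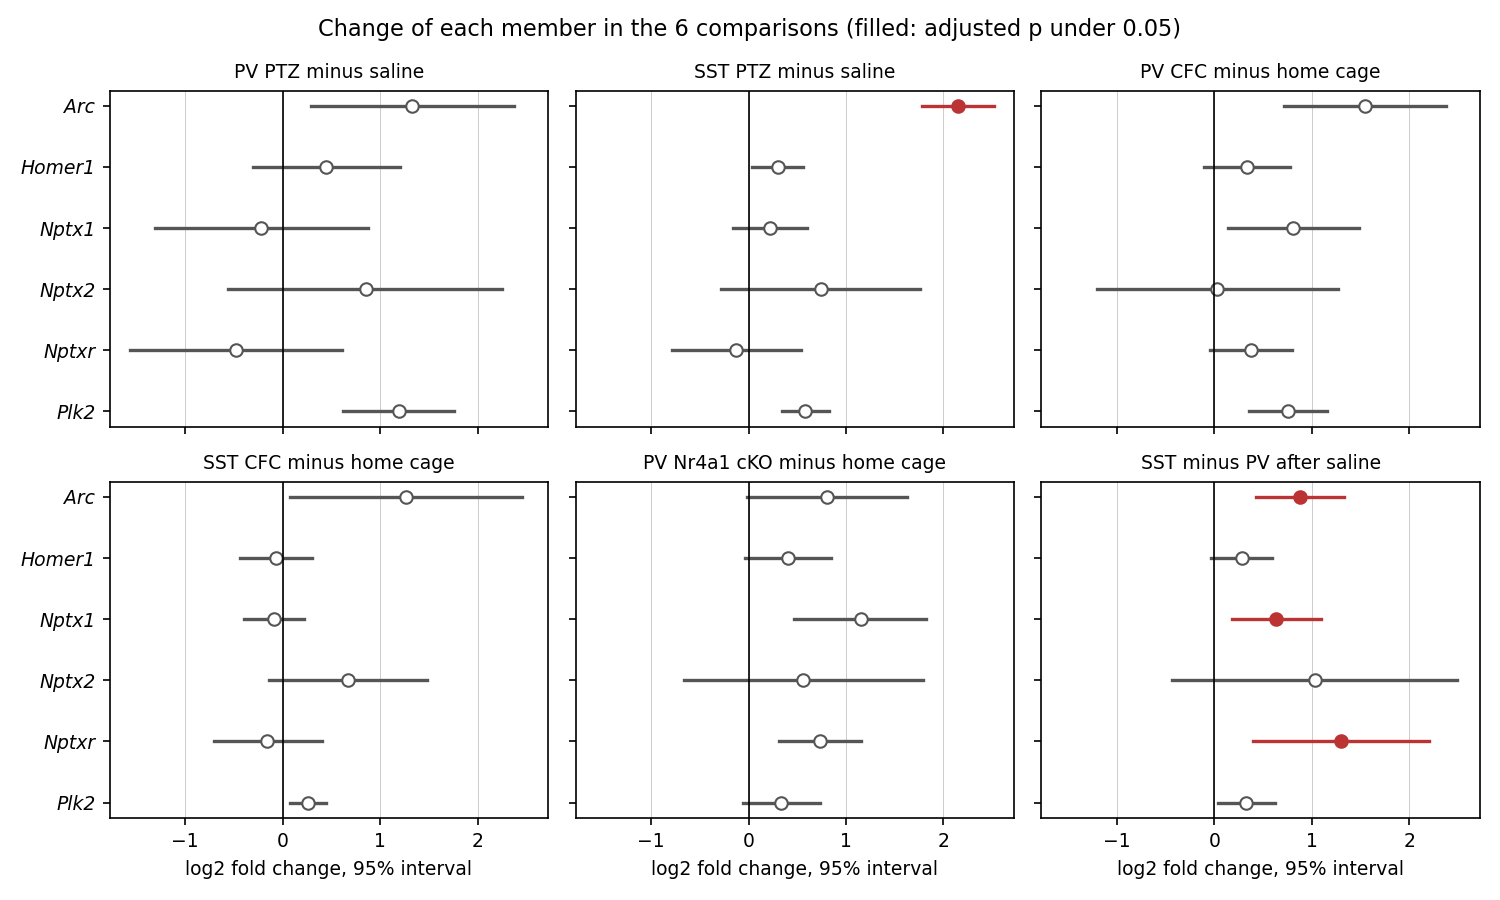
Log2 fold change of each member in the 6 direct comparisons, with its 95% interval; filled red points passed an adjusted p of 0.05 in edgeR. Arc after PTZ in SST libraries (2.15) and Arc, Nptx1 and Nptxr between SST and PV libraries after saline passed. The interval of Nptx2 is the widest in each panel except SST CFC, where that of Arc is wider.

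CFC in SST libraries left Arc and Plk2 above the home cage in every library. Arc was at 106, 59.5 and 18.7 CPM in the home cage and at 125, 147 and 172 CPM after CFC. The groups did not overlap, but the home cage libraries alone spanned more than the gap. The log2 change was 1.27 ± 0.51 (95% interval 0.08 to 2.46; adjusted p = 0.881, edgeR), 1.93 without home cage replicate 1 and 0.83 without replicate 3. Plk2 was at 153, 141 and 148 CPM and at 176, 170 and 183 CPM. Its difference was small but even, 0.26 ± 0.08 (95% interval 0.08 to 0.44; adjusted p = 0.728).

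Nptx2 was at 7.3, 12.5 and 7.47 CPM in the home cage and at 12, 10.5 and 20.9 CPM after CFC (0.67 ± 0.36, adjusted p = 0.956). The groups overlapped. Homer1 was nearly flat, at 28.7, 29.8 and 28.1 CPM and at 24.5, 30.4 and 27.6 CPM (-0.07 ± 0.16; 95% interval -0.44 to 0.30). Nptx1 was at 70.4, 56.1 and 66.9 CPM and at 58.4, 67.5 and 56 CPM (-0.09 ± 0.14; 95% interval -0.40 to 0.22). Nptxr ranged from 86.5 to 160 CPM and from 80.5 to 138 CPM (-0.16 ± 0.24).

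No member was called after CFC in SST libraries, where 0.0411% of 14614 genes were. DESeq2 and limma voom called 0 members as well, and 2 members (Arc and Plk2) and 814 genes had an unadjusted p under 0.05. The same 2 of 6 members were higher without overlap, as were 4.8% of all genes. Most markers of excitatory, glial and vascular cells were lower after CFC. Vascular and mural markers summed to 151 to 677 CPM in the home cage and to 62.1 to 91.2 CPM after CFC. They were lower for 12 of 12 genes (median log2 -2.50), with 1 called. Excitatory markers were lower for 11 of 14 (802 to 1010 CPM against 712 to 892 CPM). So were 10 of 10 astrocyte (-0.60), 11 of 11 oligodendrocyte (-0.32) and 8 of 10 microglial markers (-0.66), none called. Their part was not tested.

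The PV cKO libraries were compared with the home cage libraries of the same batch, which are also the controls of CFC above. Nptx1 was at 24.5, 18.6 and 14.4 CPM in PV cKO, above all 3 home cage libraries (10.4, 8.39 and 6.98 CPM). Nptxr was at 64.4, 43.7 and 57 CPM, above 39.8, 32.7 and 27 CPM. The secreted pentraxin and its anchor were the 2 of 6 members without overlap, against 9.37% of all genes. The log2 differences of 1.15 ± 0.31 for Nptx1 and 0.73 ± 0.19 for Nptxr did not pass the test, both at an adjusted p of 0.143 (edgeR). No member was called, against 0.139% of 15150 genes, while 2699 genes had an unadjusted p under 0.05.

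Both genes crossed the threshold in 3 of 12 alternatives. DESeq2 gave adjusted p-values of 0.0175 for Nptx1 and 0.0216 for Nptxr, the fit without a filter 0.00244 and 0.00772, and the fit without home cage replicate 1 gave 0.0454 and 0.0273. Limma voom called 0 members, and over the alternatives the adjusted p reached 0.433 for each. Leaving out home cage replicate 1 raised the number of genes called from 21 to 1224, and it also brought Plk2 past the threshold (0.59, adjusted p = 0.0406). Arc passed in the fit without a filter alone (0.84, adjusted p = 0.00386).

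Arc overlapped between PV cKO (31.3, 21.7 and 53.8 CPM) and home cage libraries, at 0.81 ± 0.38 (adjusted p = 0.286). Plk2 (67.3, 53.4 and 64.6 CPM) and Homer1 (33.5, 26.2 and 26.6 CPM) overlapped as well (0.33 ± 0.18 and 0.41 ± 0.20), as did Nptx2 (3.6, 3.82 and 1.74 CPM; 0.56 ± 0.56). All 6 differences were positive, with a median of 0.65 against 0.04 over all genes. Oligodendrocyte markers were higher for 10 of 11 genes (418 to 991 CPM against 224 to 408 CPM) and excitatory markers for 10 of 14 (542 to 623 CPM against 464 to 615 CPM). Also higher were 9 of 12 vascular (median log2 0.95), 9 of 10 astrocyte (0.45), 7 of 10 microglial (0.53) and 6 of 8 SST interneuron markers (0.37). None of these markers was called, and their part was not tested.

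The SST cKO libraries stood alone in batch 5, so genotype and batch cannot be told apart and no test was made. Arc was at 49.7, 36.9 and 40.3 CPM, Homer1 at 39.6, 38 and 40.3 CPM and Plk2 at 169, 147 and 167 CPM. Nptx1 was at 50.8, 63 and 55 CPM, Nptx2 at 10.1, 9.2 and 8.23 CPM and Nptxr at 120, 142 and 125 CPM. The libraries were close to each other, with a coefficient of variation between 2.9% for Homer1 and 15.7% for Arc.

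SST and PV libraries could be compared directly after saline in batch 2, with 4 against 2 libraries. Arc was at 73 and 57.3 CPM in PV libraries, below all 4 SST libraries (92 to 143 CPM), and was higher in SST by 0.88 ± 0.21 (adjusted p = 0.00364, edgeR). Nptx1 was at 52.6 and 38.1 CPM in PV and 54.4 to 81.9 CPM in SST libraries (0.63 ± 0.21, adjusted p = 0.0237). Nptxr was at 3.63 and 3.85 CPM in PV and 6.59 to 14.1 CPM in SST libraries (1.30 ± 0.41, adjusted p = 0.0197). These 3 members were called higher, in a comparison in which 53.1% of 11784 genes were called, 3065 higher and 3189 lower.

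Plk2 was at 67.9 and 82.1 CPM in PV and at 84.5 to 101 CPM in SST libraries, without overlap, and missed the threshold (0.33 ± 0.13, adjusted p = 0.0528). It passed in 3 of 12 alternatives, with DESeq2 (adjusted p = 0.0348), without SST saline replicate 4 (0.0431) and without PV saline replicate 2 (0.015). Non-overlap with higher values in SST thus held for 4 of 6 members and 30.7% of all genes. Homer1 overlapped (120 and 102 CPM in PV, 119 to 146 CPM in SST; 0.28 ± 0.14, adjusted p = 0.113). Nptx2 had 23 counts in one PV library (3.48 CPM) and 0 counts in the other, which allows up to 0.608 CPM (3 counts, counting error only); the fitted difference of 1.03 ± 0.67 (adjusted p = 0.215) rests in part on that 0. Without the PV library at 0, replicate 2, it was 0.17. Without replicate 1 the only PV library left is the one at 0, and Nptx2 then passed (adjusted p = 0.000232), with a fitted log2 value of 8.90 that is no measured fold. Arc passed in all 12 alternatives (adjusted p up to 0.0351), Nptx1 in 9 and Nptxr in 8. Without PV replicate 1 Nptxr missed it (adjusted p = 0.0831), as it did without PV replicate 2 (0.0532), where Nptx1 missed it too (0.134). The excitatory markers summed to 1660 and 1700 CPM in PV and 1250 to 1800 CPM in SST libraries, 4 of 14 higher in SST and 3 called. Vascular and mural markers were higher in SST for 6 of 7 tested (median log2 1.89, 4 called). They summed to 5.35 and 16.6 CPM in PV and to 24.7 to 50.7 CPM in SST libraries. Higher in SST were also 7 of 9 microglial (3 called), 6 of 11 oligodendrocyte (3 called) and 3 of 10 astrocyte markers (4 called). Their part was not tested.

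**Figure D3:**
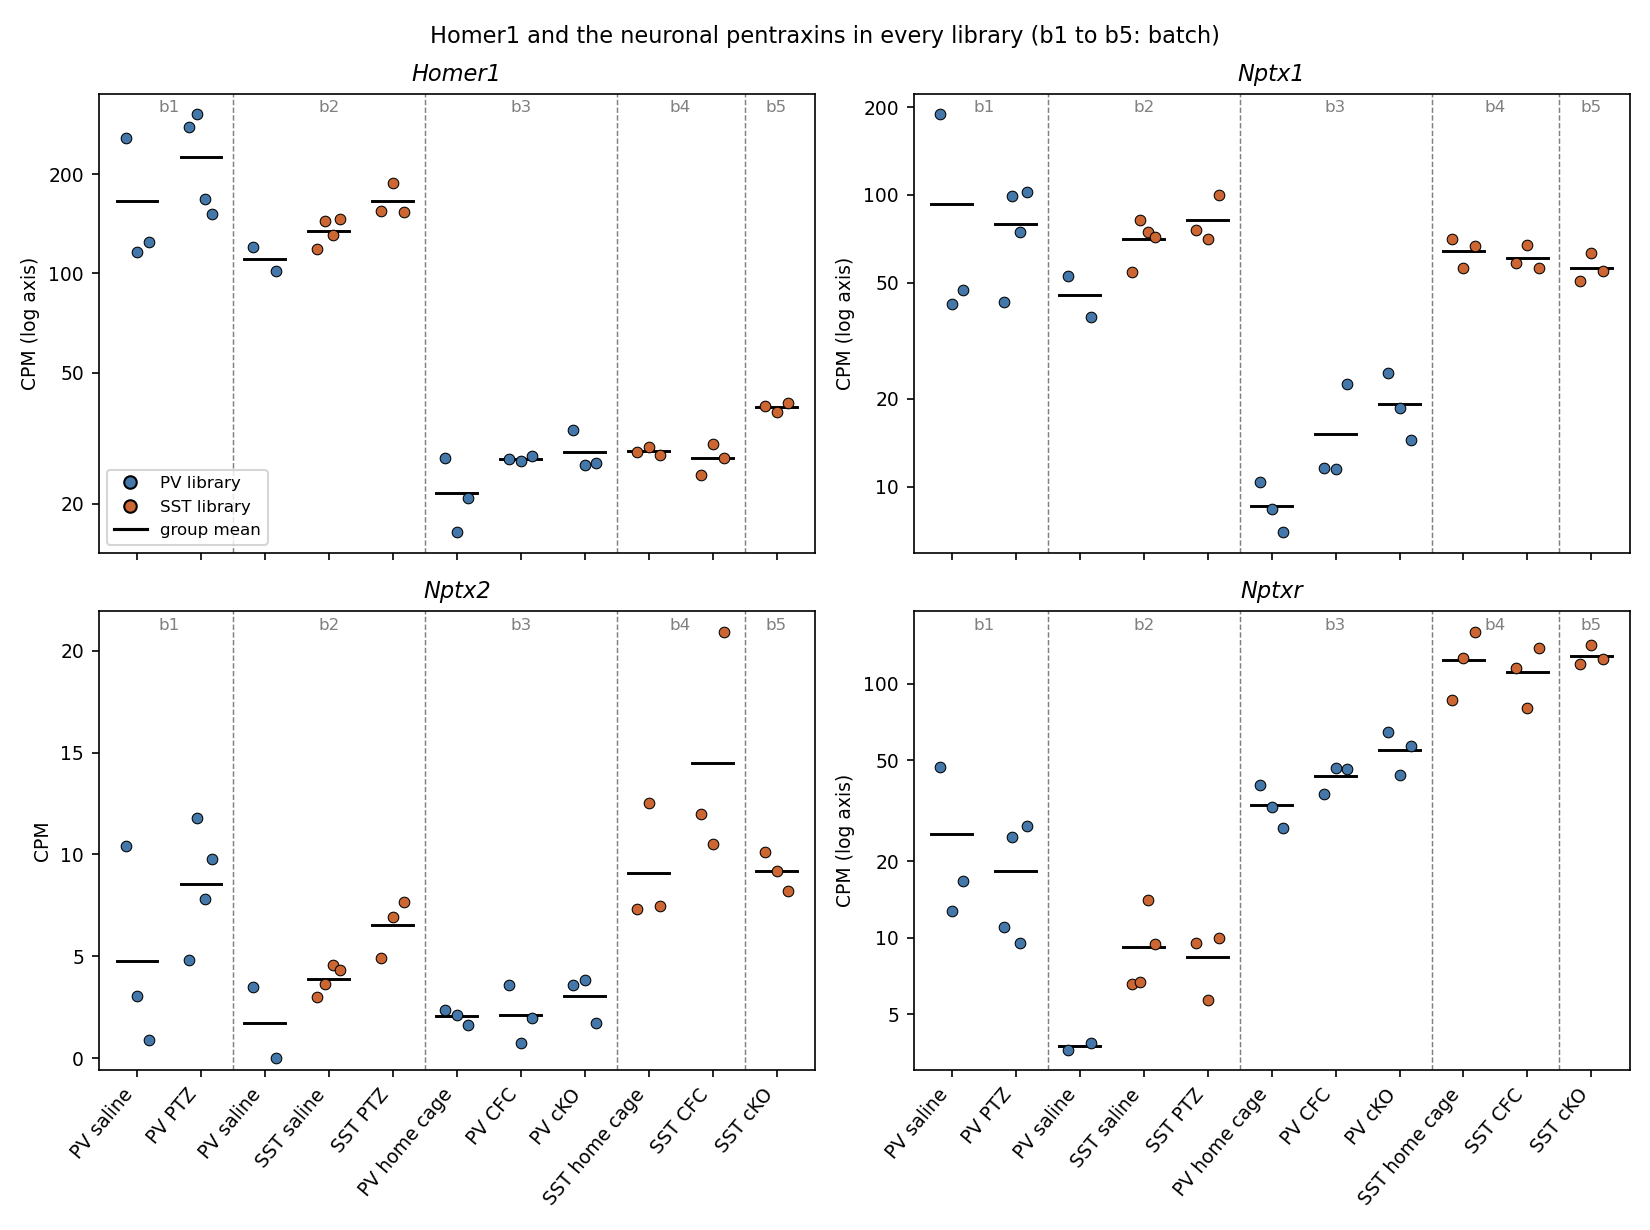
Levels of Homer1, Nptx1 and Nptxr (log axes) and Nptx2 (linear axis) in CPM in each library; black lines are group means and dashed lines separate batches, which were scaled separately. PV saline replicate 1 of batch 1 is the highest saline library of its batch for all 4 genes, and 1 PV library of batch 2 is at 0 for Nptx2.

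Whether a response differed between cell types or between treatments was tested as a difference of differences, each response taken within its batch. No member passed in any of the 4 tests by edgeR. Arc responded to PTZ by 2.15 in SST and 1.33 in PV libraries, a difference of 0.79 ± 0.53 (95% interval -0.32 to 1.90), which was -0.16 without PV saline replicate 1. For Plk2 the point estimate was -0.64 ± 0.28 (95% interval -1.24 to -0.05), which did not pass (adjusted p = 0.82). The other 4 members differed by -0.19 (Homer1) to 0.40 (Nptx1). edgeR called 0% of 11743 genes here, 602 had an unadjusted p under 0.05, and DESeq2 called 1 gene and limma voom 0.

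For CFC, the point estimates of SST minus PV were -0.84 ± 0.36 for Nptx1 (95% interval -1.61 to -0.07; adjusted p = 0.287) and -0.45 ± 0.21 for Plk2 (adjusted p = 0.322), and neither passed. Plk2 passed without PV home cage replicate 1 (-0.68, adjusted p = 0.0297, in a range of 0.0297 to 0.548 over 17 alternatives). Arc differed by -0.23 ± 0.71, with a 95% interval from -1.76 to 1.30. Homer1 (-0.35 ± 0.26), Nptxr (-0.48 ± 0.32) and Nptx2 (0.71 ± 0.68) did not pass either. edgeR called 0% of 16044 genes, and 2447 had an unadjusted p under 0.05; DESeq2 called 327 and limma voom 0.

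CFC and PTZ were compared within each driver. In SST libraries the Arc response to CFC was lower by point estimate (-0.86 ± 0.52; 95% interval -1.97 to 0.24), and was -0.15 without home cage replicate 1. Homer1 (-0.34 ± 0.18), Plk2 (-0.30 ± 0.16) and Nptx1 (-0.28 ± 0.25) were lower by less, and those of Nptx2 (-0.03 ± 0.69) and Nptxr (0.00 ± 0.42) had wide errors. edgeR called 0.0875% of 11428 genes here, 850 had an unadjusted p under 0.05, and DESeq2 and limma voom called 0 members. In PV libraries Arc differed by 0.14 ± 0.63, Plk2 by -0.48 ± 0.32, Homer1 by -0.16 ± 0.40, Nptx1 by 0.96 ± 0.62, Nptx2 by -0.88 ± 0.91 and Nptxr by 0.80 ± 0.56, with 0.00701% of 14257 genes called and 1968 at an unadjusted p under 0.05. The Arc value there had no stable sign, since 7 of 19 alternatives gave a negative one.

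**Figure D4:**
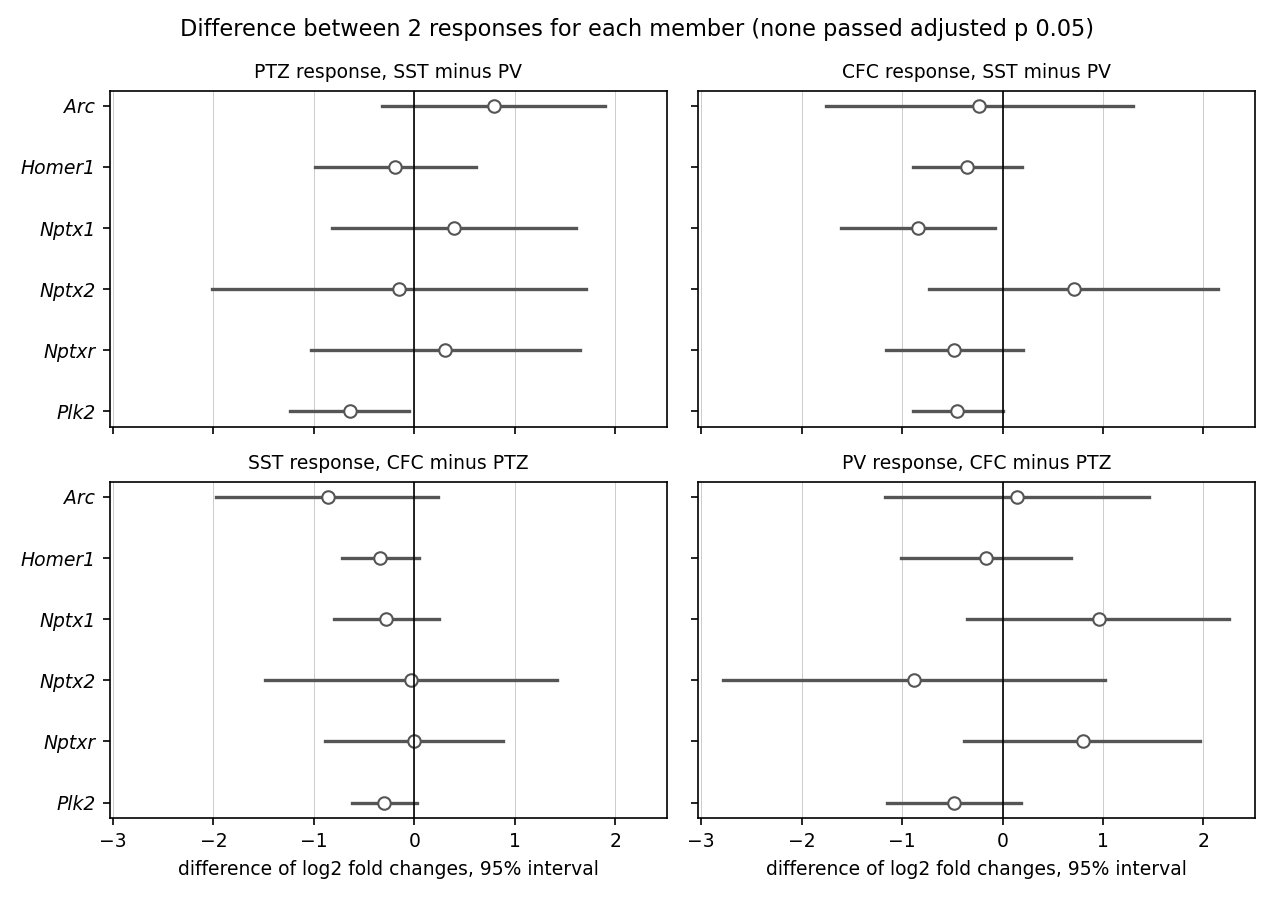
Difference between 2 responses for each member, in log2 units, with its 95% interval. All 24 intervals belong to differences that missed the threshold; those of Plk2 (PTZ and CFC) and Nptx1 (CFC) lie just below 0 for SST minus PV, and those of Nptx2 are the widest except for the CFC response of SST minus PV, where that of Arc is wider.

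Partners of the members were described from 5 lists. Of 13 genes of the Homer and metabotropic receptor scaffold, 14 Arc partners in endocytosis and signalling, 14 pentraxin partners and 14 Polo-like kinases and Plk2 targets, none was called after PTZ, after CFC or in PV cKO libraries, in any direction. Median changes ranged from -0.20 (scaffold, PV cKO) to 0.39 (pentraxin partners, PV cKO). The pentraxin list shares genes with the microglial markers and the Arc list with the excitatory markers, and the part of other cells was not tested. Among 23 other activity-regulated effectors, 20 were tested in SST libraries after PTZ and 2 were called, against 0.144% of all genes tested. Ptgs2, an inducible cyclooxygenase, rose by 2.73 ± 0.22 (adjusted p = 0.000109, edgeR) and Rgs4, which shortens G-protein signals, by 0.76 ± 0.10 (adjusted p = 0.00421). The median of that list was 0.34 in SST and 0.41 in PV libraries after PTZ (15 of 20 positive, 0 called in PV), and 0.01 in SST and 0.04 in PV libraries after CFC.

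Between SST and PV libraries after saline, partners differed widely, as did all genes. The counts called below stand beside the 53.1% of all genes called in this comparison. In the scaffold, 6 of 12 genes were higher in SST and 3 lower: the scaffold regulator Frmpd4 was higher by 1.89 ± 0.12, and Shank1 (-1.12 ± 0.14) and Ncdn (-0.77 ± 0.11) were lower. Among 11 pentraxin partners, 6 were higher and 1 lower. The AMPA receptor subunits Gria2 (1.22 ± 0.15) and Gria1 (0.77 ± 0.13), the AMPA receptor auxiliary subunit Cacng3 (2.36 ± 0.21) and the kainate receptor subunit Grik2 (1.14 ± 0.12) led them. Of 14 Arc partners, 3 were higher, among them Dnm3 (1.54 ± 0.12) and Notch1 (3.57 ± 0.44), and 3 lower, among them Dnm1 (-0.85 ± 0.11) and Stmn4 (-3.32 ± 0.27).

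Of 12 tested genes on the Plk list, 4 were higher and 2 lower, with the kinase Plk4 at 0.94 ± 0.31, Pdlim5 at 2.55 ± 0.45, Cdk5, a kinase that primes Plk2 targets, at -0.85 ± 0.16 and the spine protein Sipa1l1 at -0.39 ± 0.14. Among the other effectors, 10 of 20 were higher, with the peptide genes Crh (5.68 ± 0.66) and Igf1 (4.38 ± 0.32) and the prohormone convertase Pcsk1 (1.63 ± 0.27), and 3 lower, with Rgs2 at -2.20 ± 0.17. All genes named in this comparison had an adjusted p of at most 0.0288.

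Per kilobase of annotated exon, Plk2 was the most abundant member in home cage libraries, at 32.8 CPM per kb in SST and 10.9 CPM per kb in PV (group means of separate tables). In SST home cage libraries Nptxr (24), Arc (20.1), Nptx1 (12.4), Nptx2 (3.59) and Homer1 (2.41 CPM per kb) followed. In PV home cage libraries Arc (6.73), Nptxr (6.41), Homer1 (1.81), Nptx1 (1.65) and Nptx2 (0.809 CPM per kb) followed. The Homer1 value is low in part by construction, since its 11976 bases of exon are the union of forms of which the longest has 5713 bases.

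Over the 11 groups, Arc was ordered from SST PTZ (534 ± 108 CPM, SD) over PV PTZ (268 ± 31.1), SST CFC (148 ± 23.2), SST saline (120 ± 21.3), PV saline of batch 1 (107 ± 91.3) and batch 2 (65.2 ± 11.1), SST home cage (61.5 ± 43.9), PV CFC (59.5 ± 19), SST cKO (42.3 ± 6.64) and PV cKO (35.6 ± 16.5) to PV home cage (20.6 ± 8.98). Of 10 neighbouring pairs in that order, 2 did not overlap: SST PTZ above PV PTZ, and PV PTZ above SST CFC, both across separately scaled tables. For Plk2 the order was PV PTZ (205 ± 46.4), SST CFC (176 ± 6.54), SST cKO (161 ± 12.4), SST home cage (147 ± 5.87), SST PTZ (141 ± 8.04), SST saline (94.3 ± 7.65), PV saline of batch 1 (90 ± 28.1), PV CFC (83 ± 5.8), PV saline of batch 2 (75 ± 10), PV cKO (61.8 ± 7.33) and PV home cage (48.9 ± 13.2), with 3 of 10 neighbouring pairs free of overlap.

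Across sets of tables, the levels of Homer1 did not overlap, while those of the other members overlapped, some with shifted ranges. Homer1 was at 102 to 304 CPM in every library of batches 1 and 2 and at 16.4 to 40.3 CPM in every library of batches 3 to 5. Nptxr went the other way, at 3.63 to 47 CPM in batches 1 and 2 and at 27 to 160 CPM in batches 3 to 5. Arc ran from 36.1 to 641 CPM in batches 1 and 2 and from 11.1 to 172 CPM in batches 3 to 5. The ranges of Nptx1 were 38.1 to 189 CPM and 6.98 to 70.4 CPM. Over all 11 groups, 3 of 10 neighbouring pairs were apart for Homer1, 1 of them at the step between these sets of tables, and 2 of 10 for Nptxr. For Nptx1 the order ran from PV saline of batch 1 (92.8 ± 83.2 CPM) to PV home cage (8.6 ± 1.73 CPM), with 2 of 10 pairs apart, and for Nptx2 from SST CFC (14.5 ± 5.64 CPM) to PV saline of batch 2, with 1 of 10 apart. Batch, counting and condition cannot be told apart across tables.

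**Figure D5:**
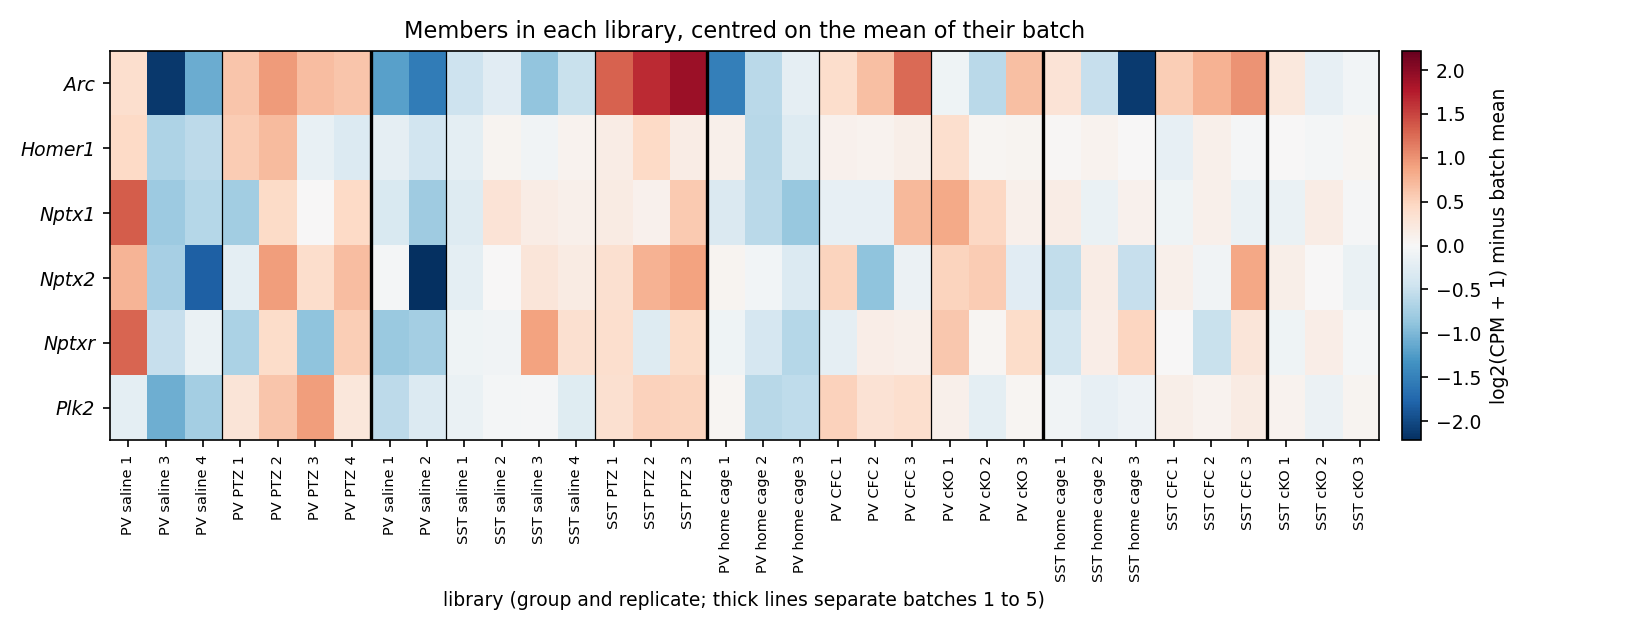
Each member's log2(CPM + 1) minus its mean over the libraries of the same batch (colour scale), for all 34 libraries in the order of their groups. Arc shows the widest range, low in PV saline replicate 3 of batch 1 and SST home cage replicate 3 and high in the SST PTZ libraries, and the first column, PV saline replicate 1, is raised for Nptx1 and Nptxr.

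Genes with a pattern like that of a member were found by Pearson's r of log2(CPM + 1), centred on the batch mean, over the 31 libraries of batches 1 to 4 and 8035 genes with at least 5 CPM on average in each of these batches. These libraries share treatments, markers of other cells and depth, so the values are descriptions. Arc was most like Dusp6, a phosphatase of MAP kinases (r = 0.89), Junb, an AP-1 subunit (0.84), and Nr4a1 (0.84). Plk2 was most like Dlg1 (0.81), Btg2 (0.79) and Ptk2 (0.79), and Homer1 like 3110035E14Rik (0.88), Dnajb5 (0.83) and Kcnh3 (0.79). For the pentraxins the likest genes were Gpm6b (0.82), Dkk3 (0.80) and the synaptic vesicle protein Sv2b (0.80) for Nptx1, Hnrnpf (0.75), Btbd9 (0.75) and Sema4a (0.74) for Nptx2, and Mmp17 (0.76), Syt5 (0.76) and Dkk3 (0.75) for Nptxr. Among the members, Arc and Plk2 (0.75) and Nptx1 and Nptxr (0.73) were the most alike, and Nptxr the least like Plk2 (0.17) and Arc (0.18).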

How the data were processed

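RNA pulled down with HA-tagged ribosomes was sequenced in 34 libraries of 11 groups. The authors deposited 1 table for each of 5 batches. For batch 1 these are expected counts (not all whole, rounded here), and for batches 2 to 5 whole read counts per gene are deposited. The submitters' processing notes list HTSeq 0.11.0, STAR 2.5.2a, cutadapt 1.18 and DESeq2 beside the builds mm10 and GRCm39. Whether counting used strand is not stated there. The tables list 24371, 11808 and 53465 (batches 3 to 5) genes, so genes tested differ between batches. No column was left unused.

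Groups were taken from the labels. Each batch was fitted with edgeR 4.0.16 (R 4.3.3) by the quasi-likelihood test with TMM scaling and edgeR's filter on low counts; tests were two-sided, and p-values were adjusted by Benjamini-Hochberg over all genes tested, with a threshold of 0.05. Errors are SE for log2 changes and SD for levels. Differences of responses across batches were fitted over both tables, each with its own controls. Alternatives were RLE scaling, DESeq2 1.42.0, limma 3.58.1 voom, no filter, the replicate block, only the groups compared and leaving out each library. The fitting steps were tested on simulated data. All 37 pairs of replicates differed by more than sampling noise (at least 5.89 chi-square per degree of freedom), and none were identical.

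All 6 members are described. For each, the 3 genes with the most similar pattern are named, and from the partner lists the genes past the threshold are named by smallest p, except 1 gene that is not reported here. The members and lists were chosen with earlier results of these data known. SST cKO libraries were left out of tests, since they are alone in their batch.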

Additional observations from a re-analysis of the deposited data

How the results depend on the processing

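The call of Arc after PTZ in SST libraries and that of Arc between SST and PV libraries after saline held in every alternative run. Of the values for single members, 796 kept direction and side of the threshold, 56 reversed, 23 passed it and 7 no longer did. Groups hold 2 to 4 libraries, and Nptx2 rests on 0 to 390 counts per library. The causes of the changes below were not tested.

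With DESeq2 the genes called were 215 (PV PTZ, 4 in edgeR), 38 (SST PTZ, 17), 745 (PV CFC, 0), 102 (SST CFC, 6), 669 (PV cKO, 21), 1 (PTZ, SST minus PV, 0), 327 (CFC, SST minus PV, 0), 62 (SST, CFC minus PTZ, 10) and 40 (PV, CFC minus PTZ, 1). DESeq2 called 1 member in PV PTZ and 2 each in SST PTZ, PV CFC and PV cKO. Limma voom called 27 genes and 2 members in SST PTZ, 1 gene in PV CFC, 2 genes for SST CFC minus PTZ and 0 for PV CFC minus PTZ. Without a filter 1032 genes and 2 members were called in PV CFC, 11 genes in SST CFC, 1072 genes and 3 members in PV cKO and 707 genes for CFC, SST minus PV. With only the groups compared 38 genes and 2 members were called in SST PTZ, 2 genes in PV CFC and 10 in PV cKO.

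Replicate numbers are shared between groups, and deviations of same-numbered libraries correlated at -0.23 to 0.51. With groups of 2 to 4 libraries, these values cannot decide whether same-numbered libraries were handled together. With the replicate block the genes called were 2 (PV PTZ), 8 (SST PTZ), 2 (PV CFC), 2 (SST CFC), 1 (PTZ, SST minus PV), 0 (SST, CFC minus PTZ) and 0 (PV, CFC minus PTZ), and 1 member was called between SST and PV after saline, where Nptx1 (0.52, adjusted p = 0.115) and Nptxr (0.96, 0.0823) no longer passed. Under the block, signs turned for Nptx1 in PV PTZ (0.01), Nptx2 in PV CFC (-0.04), Homer1 (0.00) in the PTZ difference, Arc (0.04) in the CFC difference, and Arc (-0.10) and Homer1 (0.00) for PV CFC minus PTZ.

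Leaving PV PTZ replicates 1 and 2 out together, chosen after seeing the data, gave 0 genes in PV PTZ, 1 for the PTZ difference and 0 for PV CFC minus PTZ, and turned Homer1 (-0.05 in PV PTZ, 0.32 for the PTZ difference, 0.34 for PV CFC minus PTZ). Limma voom turned Nptx1 in PV PTZ (0.07) and Nptx2 in PV CFC (-0.29). For Arc in PV CFC minus PTZ, RLE scaling gave -0.01, DESeq2 -0.02 and limma voom -0.06; DESeq2 gave 0.00 for Nptxr in SST CFC minus PTZ. RLE scaling moved the median of all genes by -0.10 in PV CFC minus PTZ.

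Leaving out 1 library gave 0 to 14 genes and 0 to 1 members in PV PTZ, 0 to 1481 and 0 to 1 in PV CFC, 1 to 37 genes in SST CFC, 7 to 1224 and 0 to 3 in PV cKO, 2 to 4 members between SST and PV after saline, 0 to 1 genes for the PTZ difference, 0 to 879 and 0 to 1 for the CFC difference, 0 to 59 for SST CFC minus PTZ and 0 to 9 for PV CFC minus PTZ. The highest counts in PV CFC and PV cKO came without home cage replicate 1. Log2 values that crossed 0 ran from -0.57 to 0.82 (Nptx1) and -0.81 to 0.30 (Nptxr) in PV PTZ, -0.28 to 0.15 (Nptxr) in SST PTZ, -0.59 to 0.43 (Nptx2) in PV CFC, and -0.15 to 0.01 (Homer1) and -0.36 to 0.07 (Nptxr) in SST CFC. For the PTZ difference they ran from -0.16 to 1.21 (Arc), -0.66 to 0.02 (Homer1), -0.66 to 0.75 (Nptx1), -1.40 to 0.37 (Nptx2) and -0.48 to 0.64 (Nptxr), and for the CFC difference from -0.66 to 0.46 (Arc). For SST CFC minus PTZ they ran from -0.38 to 0.24 (Nptx2) and -0.26 to 0.23 (Nptxr), and for PV CFC minus PTZ from -0.70 to 0.54 (Arc) and -0.55 to 0.04 (Homer1).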
